A study of Mus musculus with 209 samples.

Results

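Calcium stores, pumps and mitochondrial exchange were followed through 9 genes: Itpr1, Atp2a2, Atp2b1, Stim1, Stim2, Orai1, Slc8b1, Mcu and Calm2. They were taken by symbol from the gene-level count tables, and all 9 were found among the 24450 gene rows of the oocyte and 2-cell table and among the 24446 genes of the epiblast tables. The 9 were set beside 62 other genes of calcium handling, grouped in 6 lists by role. RNA was measured, and protein and calcium itself were not.

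Calcium ions serve as the signal that starts development in mammalian eggs: at fertilization the endoplasmic reticulum releases calcium in repeated waves through inositol trisphosphate receptors. Pumps return the ions to the store or move them out of the cell, sensors in the store membrane open channels in the plasma membrane when the store runs low, and mitochondria take up and release calcium through a uniporter and an exchanger. Calmodulin binds the released calcium and passes the signal on to kinases and phosphatases.

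The series maps DNA methylation and RNA in mouse germ cells and embryos, and the RNA used here came from single MII oocytes, single 2-cell samples and epiblast. KO 2-cell samples (9 libraries) and KO MII oocytes (19 libraries) carry the label N14 maternal KO, read here as loss of Nlrp14 in the mother. WT 2-cell samples (8 libraries) and WT MII oocytes (14 libraries) carry the label WT, and the mothers of both groups were superovulated C57BL/6 females of 6 to 8 weeks. Oocytes were collected 14 to 15 hours after hCG and 2-cell embryos 42 to 43 hours after hCG, from matings with C57BL/6 or PWK males. The labels name no mother and no male strain for a library and do not say whether a 2-cell library is a whole embryo or 1 blastomere, so each group counts as 1 sample and no test was made between groups of single cells. IVC epiblast (2 samples) was set against E6.5 epiblast (2 samples, marked ND), all WT with C57BL/6 mothers and fathers, and the labels spell out neither IVC nor ND.

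Levels are CPM, a gene's reads scaled to 1000000 reads counted on genes in the library, and CPM values of different genes are not comparable because they are not divided by transcript length. Ratios between groups of single cells are log2 ratios of pooled CPM, the summed counts of a group over its summed totals, with an exact 95% Poisson interval that covers counting error only. Reads were not counted by molecular identifiers and are not independent molecules, so the true error is wider. A gene was called measured at 10 CPM or more in either pool and called higher or lower at 2-fold or more. Where groups are said not to overlap, the share of all genes without overlap was not counted.

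Library totals were 2704050 to 15007301 reads for KO 2-cell samples, 3788348 to 10303580 for WT 2-cell samples, 4585916 to 10637866 for KO oocytes and 3933604 to 13052327 for WT oocytes. Nlrp14, the targeted gene, had a pooled level of 63.7 CPM in KO 2-cell samples and 260 CPM in WT 2-cell samples, and of 36.7 CPM in KO oocytes and 726 CPM in WT oocytes. The deleted part of the gene is not given in the labels. WT 2-cell replicate 8 stood apart from the other WT 2-cell samples. Its Nlrp14 was 106 CPM, its Calm2 466 CPM and its paternal share over all genes 4.00%, each the lowest of the 8. For this reason 2-cell results are also given without it. Calm2 and the paternal share are themselves results here, so wider gaps without this library follow in part from that choice. Its 6 oocyte markers summed to 6321 CPM against a WT median of 2163 CPM. WT replicate 1 was nearly as high, at 5657 CPM, with the next lowest paternal share, 9.03%. Among KO 2-cell samples, replicates 4 and 9 had the lowest sums of 2-cell markers (141 and 193 CPM) and the lowest paternal shares (1.51 and 1.21%). They were not left out in the same way. The oocyte libraries were of 3 kinds, told apart here by their read composition and unnamed in the labels, which are not groups of the study: spike-in libraries with over 0.01% of reads on spike-in RNA (7 KO and 10 WT), low-rRNA libraries, the rest with under 1% of reads on Rn45s (10 KO and 3 WT), and the remaining ones (2 KO and 1 WT). All 17 2-cell libraries belonged to the spike-in set. The 4 markers of the 2-cell embryo separated the labelled stages. They summed to 141 to 1984 CPM in KO and 403 to 927 CPM in WT 2-cell samples and to at most 12.1 CPM in an oocyte. All 6 oocyte markers were detected in KO and WT oocytes but also in both 2-cell groups, so they do not separate the stages. Their median sums were 6603 CPM in KO and 3246 CPM in WT oocytes, and 6462 CPM in KO and 2163 CPM in WT 2-cell samples. Cumulus and granulosa markers would mark carried-over follicle cells. They summed to 22.8 to 40.7 CPM in KO 2-cell samples and 17.2 to 75.8 CPM in WT 2-cell samples. At that stage 6 of 8 markers had reads in KO (Ptx3 and Inha at 0) and 7 of 8 in WT (Foxl2 at 0). In oocytes the sums were higher, 46.2 to 186 CPM in KO and 44.2 to 113 CPM in WT. Reads were found there for 5 of 8 markers in KO (Fshr, Amh and Foxl2 at 0) and 7 of 8 in WT (Ptx3 at 0).

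The 2-cell KO samples had a lower CPM of Calm2 and a higher CPM of Stim2 than the WT samples. The other members measured at 10 CPM were within 2-fold. These are shares of a library's gene reads and not amounts per sample. Spike-in RNA took 0.0478 to 0.0957% of reads in KO and 0.0583 to 0.135% in WT 2-cell libraries. Ratios scaled to spike-in RNA were not tested. Of the 7 members measured, 1 was 2-fold or more higher in KO (Stim2) and 1 was 2-fold or more lower (Calm2), where 37.5% of the 8416 genes measured were 2-fold or more apart, 5.96% higher and 31.6% lower. The median log2 ratio was 0.07 over the 7 members and −0.35 over all genes. The members' count is no higher than this background. Without WT replicate 8, 48.2% of genes were 2-fold or more apart (11.3% higher, 36.9% lower), and the same 2 members were called.

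**Figure D1:**
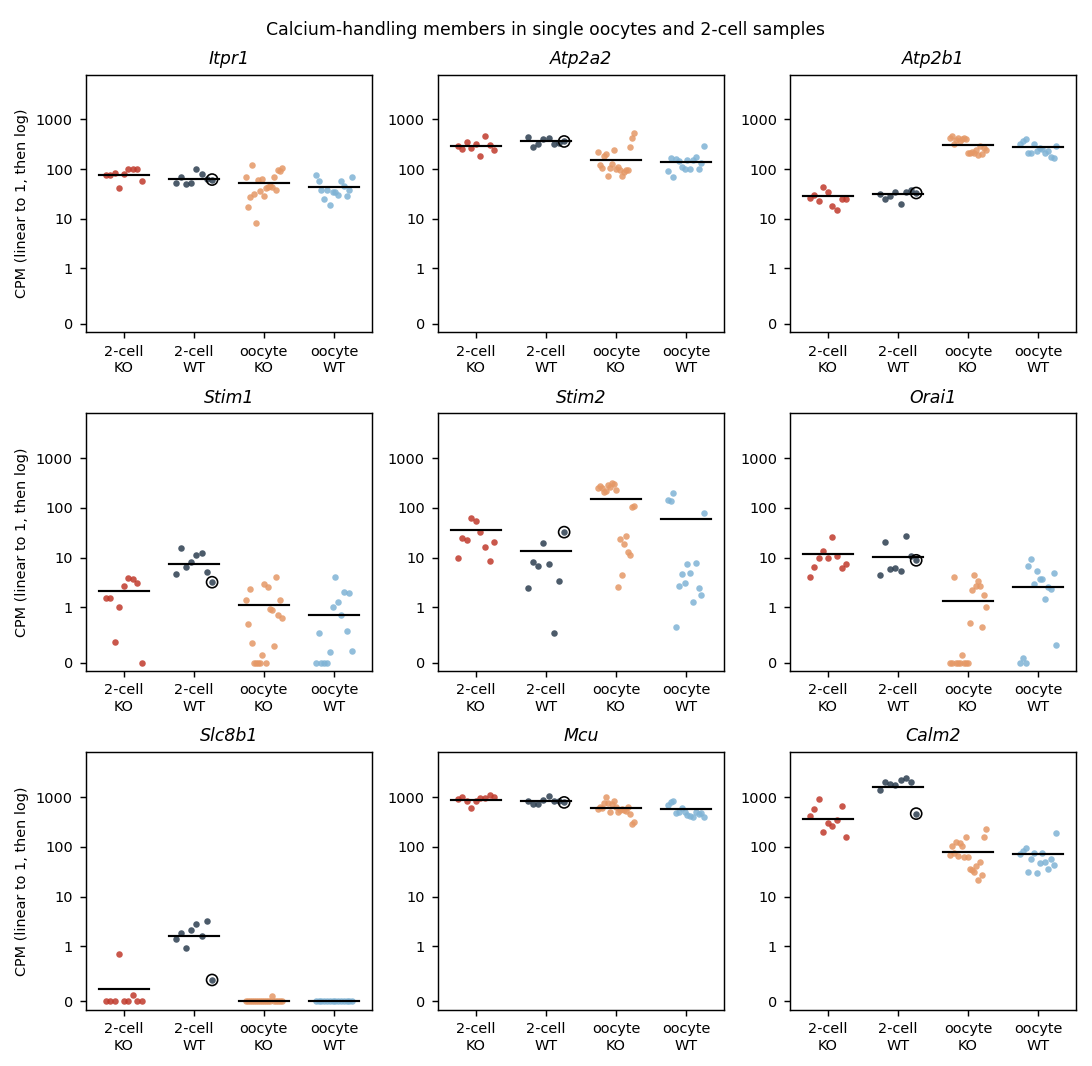
Level of each member in every oocyte and 2-cell library, in CPM on an axis linear to 1 and then logarithmic, one panel per gene with groups along the horizontal axis; points are libraries, black bars are pooled CPM and the circled point is WT 2-cell replicate 8. Calm2 lies at 157 to 917 CPM in KO 2-cell samples, and 7 of 8 WT 2-cell samples lie at 1381 to 2428 CPM with replicate 8 at 466 CPM.

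Of the release genes, Itpr1 encodes the inositol trisphosphate receptor through which eggs release stored calcium. Itpr1 had a lowest, median and highest level of 41.4, 81.0 and 103 CPM in KO 2-cell samples, against 51.1, 62.9 and 102 CPM in WT 2-cell samples. The groups overlapped over nearly their whole range, and 7 of 9 KO samples lay above the WT median. The pooled levels of 76.1 CPM in KO and 64.1 CPM in WT gave a log2 ratio of 0.25 (0.18 to 0.32).

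Atp2a2 encodes the SERCA2 pump, which returns calcium to the endoplasmic reticulum, and Atp2b1 encodes the PMCA1 pump, which moves it out across the plasma membrane. Atp2a2 had 185, 292 and 473 CPM (lowest, median, highest) in KO 2-cell samples and 282, 345 and 442 CPM in WT 2-cell samples. These ranges overlapped, and 2 of 9 KO samples were above the WT median. Its pooled log2 ratio was −0.29 (−0.33 to −0.26), a sign that depends on scaling: it was 0.07 with TMM factors. Atp2b1 had 14.8, 24.7 and 42.6 CPM in KO and 20.2, 32.5 and 38.1 CPM in WT 2-cell samples. It overlapped too, with a log2 ratio of −0.13 that was 0.23 with TMM factors.

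Stim1 and Stim2 encode the sensors in the store membrane that feel its calcium content, and Orai1 encodes the plasma membrane channel that they open. The promoters of these 3 partners are shown because their RNA levels took different courses across the groups. Sequences are from RefSeq on GRCm38.p6, each reaching from 250 bases before to 50 bases after the gene's start and printed in the gene's direction. The count tables were made on mm9, and no coordinates are carried over. Capitals mark the GC box (GGGCGG, or CCGCCC for the other strand) and the CCAAT box (CCAAT, or ATTGG for the other strand).
Stim1 promoter, chr7:102267569-102267868, plus strand: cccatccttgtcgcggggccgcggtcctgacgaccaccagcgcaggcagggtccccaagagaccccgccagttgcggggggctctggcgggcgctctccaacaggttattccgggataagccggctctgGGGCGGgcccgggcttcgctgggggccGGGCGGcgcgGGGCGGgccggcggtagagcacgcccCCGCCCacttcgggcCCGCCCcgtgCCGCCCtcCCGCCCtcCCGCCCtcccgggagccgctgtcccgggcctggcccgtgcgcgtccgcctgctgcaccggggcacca
Stim2 promoter, chr5:53998273-53998572, plus strand: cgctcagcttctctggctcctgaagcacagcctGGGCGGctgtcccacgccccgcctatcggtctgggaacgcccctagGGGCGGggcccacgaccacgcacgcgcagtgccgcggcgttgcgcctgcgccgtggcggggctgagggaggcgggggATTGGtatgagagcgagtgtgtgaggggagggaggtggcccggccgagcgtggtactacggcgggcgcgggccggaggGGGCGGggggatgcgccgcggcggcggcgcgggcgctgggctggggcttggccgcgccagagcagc
Orai1 promoter, chr5:123014824-123015123, plus strand: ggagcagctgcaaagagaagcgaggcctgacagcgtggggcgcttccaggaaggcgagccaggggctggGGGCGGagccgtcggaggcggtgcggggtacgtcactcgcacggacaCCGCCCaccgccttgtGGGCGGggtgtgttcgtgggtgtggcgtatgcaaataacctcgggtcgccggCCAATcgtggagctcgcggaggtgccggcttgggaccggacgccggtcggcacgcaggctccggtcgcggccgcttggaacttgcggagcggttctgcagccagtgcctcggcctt

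The Stim1 window held 8 GC boxes, 3 on the given strand and 5 on the other. The Stim2 window held 3 GC boxes and 1 CCAAT box, and the Orai1 window likewise held 3 and 1. Over 32851 promoters of the same length, 35.7% held a GC box and 37.4% a CCAAT box on either strand. GC content was 78.7% in the Stim1 window, 76.7% in the Stim2 window and 70.3% in the Orai1 window, against a median of 52.7% over all promoters. No window of these 3 genes held TATAAA, found in 13.6% of all promoters, or TAATCC, found in 7.06%. A matched motif is a description of the letters and not a measured binding site. Promoters were matched for 5 of the 9 members.

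Stim2 was the member called higher in KO 2-cell samples. Its level was 8.62, 22.6 and 63.7 CPM (lowest, median, highest) in KO 2-cell samples and 0.528, 7.13 and 32.6 CPM in WT 2-cell samples. All 9 KO samples lay above the WT median, but the ranges overlapped, with WT replicate 8 highest among WT. The pooled levels of 35.9 CPM in KO and 13.6 CPM in WT gave a log2 ratio of 1.40 (1.26 to 1.53). Without WT replicate 8 the WT samples reached 19.8 CPM at most and the ratio was 2.23, and without KO replicate 4, the deepest KO library, it was 0.99, under 2-fold. The 6 oocyte markers, all detected in both groups, summed to 2483 to 12191 CPM in KO 2-cell samples and 1403 to 6321 CPM in WT 2-cell samples. The sum was mostly Bmp15 (5286 CPM pooled in KO, 2770 CPM in WT) and Gdf9 (1897 CPM in KO, 513 CPM in WT), and Nlrp5 was higher in KO too (log2 ratio 1.58), while Zp1 and Zp2 were near equal (0.31 and 0.16) and Zp3 was lower in KO (40.1 CPM in KO, 72.7 CPM in WT). The part of these markers in the Stim2 difference was not tested.

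Stim1 went the other way at a level under 10 CPM in both groups. It had 0, 1.56 and 3.87 CPM in KO 2-cell samples against 3.20, 7.33 and 15.5 CPM in WT 2-cell samples. No KO sample reached the WT median, and only WT replicate 8 overlapped the KO range. The pooled log2 ratio was −1.79 (−2.10 to −1.50) from 134 reads in KO and 319 reads in WT, and −2.03 without WT replicate 8, when the groups did not overlap. Orai1 had 4.04, 9.84 and 25.6 CPM in KO and 4.42, 7.55 and 26.7 CPM in WT 2-cell samples. Its groups overlapped over nearly the whole range, and its log2 ratio of 0.20 (0.03 to 0.38) was −0.10 when libraries were weighted equally.

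Of the mitochondrial members, Mcu encodes the pore of the uniporter that lets calcium into the matrix, and Slc8b1 encodes NCLX, the exchanger that lets it out in return for sodium. Mcu had 618, 943 and 1094 CPM in KO 2-cell samples and 719, 821 and 1069 CPM in WT 2-cell samples. Its groups overlapped, and the log2 ratio of 0.07 (0.05 to 0.08) was small beside the range of single libraries. Slc8b1 was near the limit of detection. In KO 2-cell samples 7 of 9 libraries had no read, replicate 7 had 0.112 CPM and replicate 4 had 0.866 CPM, for 14 reads in all. Every WT 2-cell library had reads, at 0.388, 1.72 and 3.21 CPM (lowest, median, highest) and 68 reads in all. The pooled log2 ratio was −2.82 (−3.77 to −1.98). KO replicate 4 supplied 13 of the 14 KO reads, and the ratio was −6.23 without it. Leaving out WT replicate 8 gave −3.13 and groups that did not overlap.

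Calm2 encodes calmodulin. How the authors' counting split reads between genes of similar sequence, and whether it used the strand, is not given in the sources used here, so its counts are uncertain to that extent. Calm2 had 157, 354 and 917 CPM (lowest, median, highest) in KO 2-cell samples against 466, 1942 and 2428 CPM in WT 2-cell samples. Every KO sample was below the WT median, and only WT replicate 8 lay within the KO range. The pooled levels of 356 CPM in KO and 1574 CPM in WT gave a log2 ratio of −2.14 (−2.17 to −2.12), or 4.42-fold lower in KO, and −2.43 without WT replicate 8. Calm2 stayed 2-fold or more lower, and Stim2 2-fold or more higher, with TMM factors and with DESeq2 size factors, which moved the ratios of all genes by a median of 0.36 and 0.27 on the log2 scale. Under these scalings the higher genes made up 37.1% and 31.7% of the genes called, against 15.9% by library totals.

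**Figure D2:**
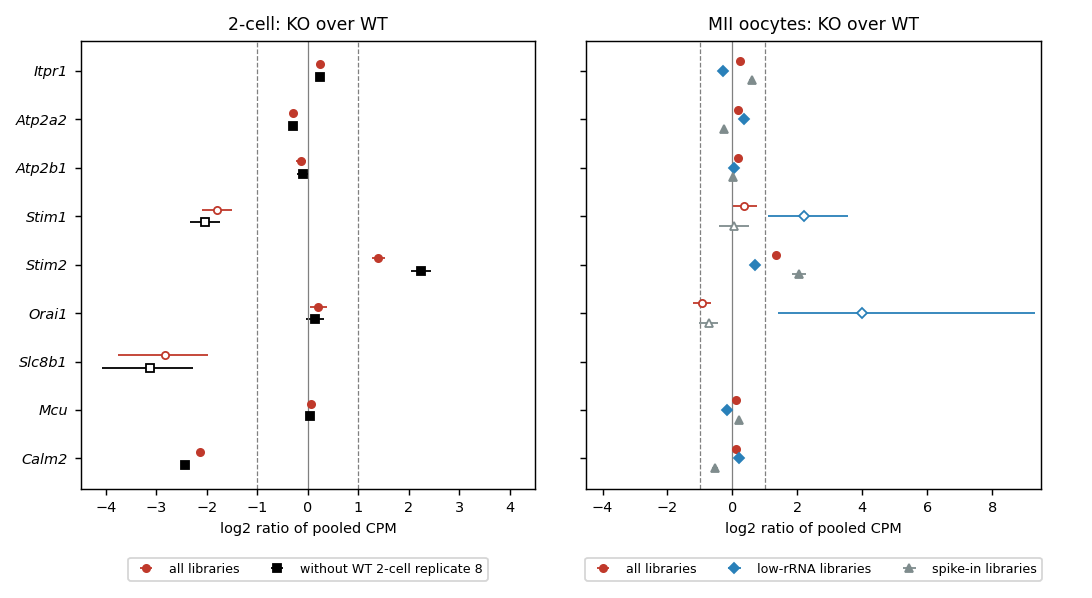
Log2 ratio of pooled CPM, KO over WT, for each member in 2-cell samples (left) and MII oocytes (right); bars are exact 95% Poisson intervals for counting error, dashed lines mark 2-fold, and open symbols are members under 10 CPM in both pools. In 2-cell samples Stim2 lies at 1.40 and Calm2 at −2.14, and in oocytes only Stim2 passes 2-fold among filled symbols.

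Among the 62 other calcium genes, 35 were measured in 2-cell samples, 2 were 2-fold or more higher in KO and 7 were lower, with a median log2 ratio of −0.12, where 5.96% of all genes were higher and 31.6% lower, so the counts are no higher than the background. The calmodulin list had 2 of 7 measured genes lower: Calm3 at 2.79 CPM in KO and 15.3 CPM in WT, and Camkk2, a kinase switched on by calmodulin, at 2.49 CPM in KO and 16.2 CPM in WT. The mitochondrial list had 2 of 11 measured genes lower, Letm1 (6.33 CPM in KO, 23.5 CPM in WT) and Smdt1, the small subunit EMRE that the uniporter needs (8.71 CPM in KO, 29.7 CPM in WT). In both, every KO sample was below every WT sample, and the share of all genes for which this held was not counted. The entry list had Trpc1 lower (2.10 CPM in KO, 22.8 CPM in WT) and the channel Trpm7 lower (33.8 CPM in KO, 94.0 CPM in WT), while Saraf, which turns store-operated entry down, was higher (87.8 CPM in KO, 41.5 CPM in WT). In the release list Tmbim6 was higher (322 CPM in KO, 150 CPM in WT), in the luminal list Sdf4 was lower (19.7 CPM in KO, 93.7 CPM in WT), and the 1 pump measured was within 2-fold.

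In MII oocytes, before fertilization, KO and WT differed by 2-fold in 1 of the 6 members measured, Stim2, where 4.43% of 6325 genes were 2-fold or more apart (2.04% higher, 2.39% lower). No gene of the 62 others was called among 29 measured over all libraries. Stim2 had 2.52, 210 and 317 CPM (lowest, median, highest) in KO oocytes and 0.642, 4.73 and 203 CPM in WT oocytes. Most KO oocytes were high and most WT oocytes low, but the level also went with the library set, and the sets hold unequal numbers of KO and WT oocytes. The pooled ratio is therefore given within sets. In spike-in libraries Stim2 was at 2.52 to 27.4 CPM in KO and 0.642 to 7.88 CPM in WT, overlapping, with a log2 ratio of 2.04 (1.84 to 2.26) where 13.1% of genes were apart (9.41% higher, 3.69% lower). In low-rRNA libraries it was at 210 to 317 CPM in KO and 140 to 203 CPM in WT, with no overlap and a ratio of 0.68 (0.64 to 0.73), under 2-fold where 4.01% of genes were apart. In the remaining libraries it was at 104 and 110 CPM in KO and 79.3 CPM in WT, a ratio of 0.43 where 8.90% of genes were apart.

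**Figure D3:**
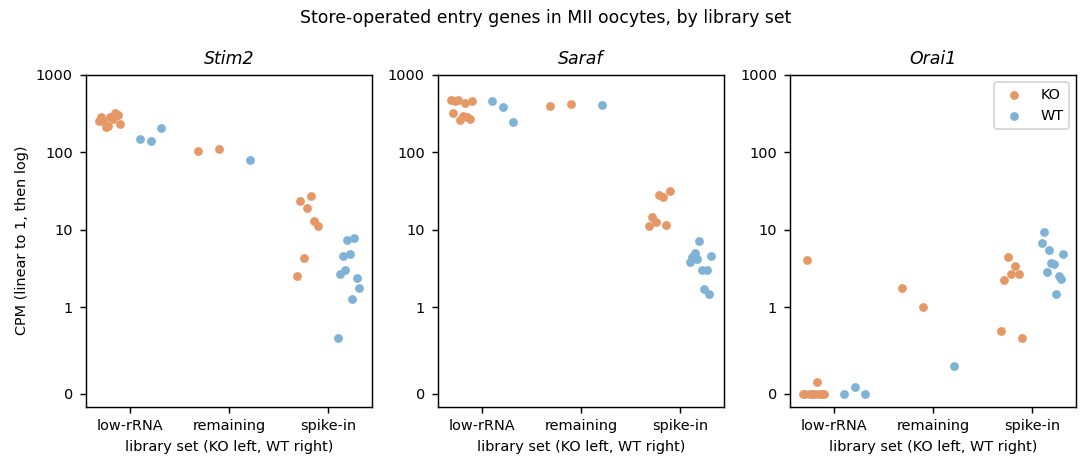
Level of Stim2, Saraf and Orai1 in each MII oocyte library, in CPM on an axis linear to 1 and then logarithmic, split by library set and genotype; points are libraries. Stim2 lies at 210 to 317 CPM in KO low-rRNA libraries and 2.52 to 27.4 CPM in KO spike-in libraries, and Orai1 has no read in 8 of 10 KO and 2 of 3 WT low-rRNA libraries.

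The other members of the oocyte comparison stayed within 2-fold. Pooled levels were 52.4 CPM in KO and 44.4 CPM in WT oocytes for Itpr1, 155 CPM in KO and 138 CPM in WT for Atp2a2, 308 CPM in KO and 275 CPM in WT for Atp2b1, 606 CPM in KO and 564 CPM in WT for Mcu, and 78.2 CPM in KO and 72.7 CPM in WT for Calm2. Their log2 ratios lay between 0.10 and 0.24, and those of Itpr1, Atp2a2, Mcu and Calm2 were of opposite sign in spike-in and in low-rRNA libraries. Calm2 was −0.54 in spike-in libraries and 0.20 in low-rRNA libraries, and Atp2a2 was −0.26 in spike-in and 0.36 in low-rRNA libraries. Under 10 CPM, Stim1 was at 1.11 CPM in KO and 0.863 CPM in WT oocytes. Orai1 was at 1.36 CPM in KO and 2.58 CPM in WT oocytes, and in KO low-rRNA libraries 35 of its 36 reads came from 1 library, replicate 3. Slc8b1 had 1 read in 1 of 19 KO oocytes and none in 14 WT oocytes, where a count of 0 allows up to 0.028 CPM, so no fold is given.

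Within a genotype, Stim2 differed between the library sets. Stim2 was higher in low-rRNA than in spike-in libraries by 4.09 (4.00 to 4.19) on the log2 scale in KO oocytes and by 5.46 (5.27 to 5.65) in WT oocytes. Saraf, the gene of the entry list whose product acts on STIM proteins, went with it: it was at 262 to 465 CPM in low-rRNA and 11.3 to 32.0 CPM in spike-in libraries of KO oocytes, and at 242 to 454 CPM in low-rRNA and 1.49 to 7.14 CPM in spike-in libraries of WT oocytes. Orai1 had few reads in low-rRNA libraries, 36 in KO oocytes, of which replicate 3 held 35, and 1 in WT oocytes, against 148 in KO and 277 in WT spike-in libraries. Between these sets 37.5% of measured genes in KO and 43.2% in WT were 2-fold or more apart. What sets these libraries apart is not given in the labels.

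Between the MII oocyte and the 2-cell stage in WT, Calm2, Orai1 and Atp2a2 were higher, and Atp2b1 was lower. Of 7 members measured, 3 were 2-fold or more higher and 2 lower at the 2-cell stage, where 55.5% of 8532 genes were apart (41.1% higher, 14.3% lower). Calm2 was at 466 to 2428 CPM in WT 2-cell samples and 29.6 to 191 CPM in WT oocytes, with no overlap, a log2 ratio of 4.44 (4.40 to 4.47). Atp2b1 was at 20.2 to 38.1 CPM in WT 2-cell samples and 165 to 408 CPM in WT oocytes, with no overlap, a ratio of −3.14 (−3.22 to −3.06). Orai1 had pooled levels of 10.3 CPM in WT 2-cell samples and 2.58 CPM in WT oocytes, 4.00-fold higher, and Atp2a2 of 363 CPM in WT 2-cell samples and 138 CPM in WT oocytes, 2.62-fold higher. In spike-in WT oocytes, the set to which the 2-cell libraries belong, Orai1 was at 4.27 CPM and Atp2a2 at 129 CPM. TMM factors moved the ratios of all genes by a median of −0.69, and with them neither Orai1 nor Atp2a2 was called. With DESeq2 size factors Atp2a2 was called and Orai1 was not.

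Stim1 and Slc8b1 were under 10 CPM at both WT stages. Stim1 had a pooled level of 7.44 CPM in WT 2-cell samples and 0.863 CPM in WT oocytes, a ratio of 3.11 (2.77 to 3.46). Slc8b1 had reads in all 8 WT 2-cell samples and in none of the 14 WT oocytes. Its pooled 2-cell level was 57.6-fold a floor of 3 reads over the oocyte group, which is not a lower limit. Mcu and Itpr1 were within 2-fold, at 0.55 and 0.53 (−0.14 and −0.16 with TMM factors), and the median over all genes was 0.64. Stim2 had no fixed direction: its pooled ratio was −2.15 (−2.27 to −2.02) against all WT oocytes (−2.98 without WT 2-cell replicate 8) and 1.89 (1.67 to 2.11) against the spike-in oocytes, the set to which the 2-cell libraries belong. Against these, 4 members were 2-fold or more higher and 1 lower, where 54.9% of genes were apart (42.1% higher, 12.8% lower).

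The same step in KO showed Orai1 and Calm2 higher and Atp2b1 lower, 2 higher and 2 lower of 7 members measured, where 40.9% of 7179 genes were apart (23.6% higher, 17.4% lower). Orai1 had pooled levels of 11.9 CPM in KO 2-cell samples and 1.36 CPM in KO oocytes, a log2 ratio of 3.13 (2.91 to 3.37), and 2.21 against the spike-in oocytes at 2.56 CPM. Calm2 had 356 CPM in KO 2-cell samples and 78.2 CPM in KO oocytes, a ratio of 2.19 (2.16 to 2.22). Its KO 2-cell libraries, at 157 to 917 CPM, overlapped 3 KO oocytes outside the spike-in set, at 158, 160 and 224 CPM, and none of the spike-in oocytes, at 21.5 to 48.6 CPM, against which the ratio was 3.36 (3.30 to 3.43). Atp2b1 had 14.8 to 42.6 CPM in KO 2-cell samples and 195 to 462 CPM in KO oocytes, with no overlap and a ratio of −3.43. Stim2 was again of opposite sign by library set, −2.09 against all KO oocytes and 1.24 against the spike-in ones. Against the spike-in oocytes 4 members were higher and 1 lower, where 35.7% of genes were apart (19.5% higher, 16.3% lower). Atp2a2 was among the higher ones (296 CPM in KO 2-cell samples, 108 CPM in KO spike-in oocytes, a ratio of 1.45). Against all KO oocytes, at 155 CPM, Atp2a2 was within 2-fold. Mcu (862 CPM in KO 2-cell samples, 606 CPM in KO oocytes) and Itpr1 (76.1 CPM in KO 2-cell samples, 52.4 CPM in KO oocytes) were within 2-fold too. Stim1 was at 2.15 CPM in KO 2-cell samples and 1.11 CPM in KO oocytes, a ratio of 0.95, and Slc8b1 had 14 reads in KO 2-cell samples and 1 read in KO oocytes, a ratio of 5.04 (2.33 to 10.4) that was 1.63 without KO 2-cell replicate 4 and 3.35 without KO oocyte replicate 14, which held the single oocyte read. The stage ratios of KO and WT share no library, but each shares its 2-cell pool with the KO and WT comparison above, and the difference between the 2 stage ratios was not tested.

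Reads that the authors assigned to a parent's allele, 39.5% of the reads in KO and 37.0% in WT 2-cell samples, show how much of each RNA carried the father's allele, which the oocyte before fertilization does not hold. The paternal share was lower in KO than in WT 2-cell samples for all 8 members with 50 or more allele reads in both groups, where it was lower for 82.5% of 9419 genes (83.6% without WT replicate 8), so the count says nothing particular to the members. Median shares over those genes were 3.37% in KO and 17.7% in WT.

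Calm2 had a paternal share of 36.1% in KO 2-cell samples (2057 of 5692 reads; exact Clopper-Pearson 95% interval 34.9 to 37.4) and 49.6% in WT 2-cell samples (8451 of 17048 reads; 48.8 to 50.3). Single libraries ran from 9.99 to 49.0%, median 41.4%, in KO and from 39.2 to 52.7%, median 51.2%, in WT. The ranges overlapped, and the lowest KO value was that of replicate 4. Calm2 had the most evenly split RNA of the members with 50 or more allele reads, with pooled paternal levels of 33.0 CPM in KO and 197 CPM in WT and maternal levels of 58.3 CPM in KO and 201 CPM in WT.

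Atp2a2 had a total close to equal but a paternal part that was not. Its paternal share was 0.229% in KO 2-cell samples (22 of 9611 reads; 0.144 to 0.346) and 3.67% in WT 2-cell samples (294 of 8011 reads; 3.27 to 4.11). Library values were 0, 0.202 and 0.787% (lowest, median, highest) in KO and 0.623, 4.91 and 7.23% in WT, and WT replicate 1 was the only WT library inside the KO range. Paternal levels were 0.353 CPM in KO and 6.86 CPM in WT, beside maternal levels of 154 CPM in KO and 180 CPM in WT.

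Stim1 had a paternal share of 6.41% in KO (5 of 78 reads; 2.11 to 14.3) and 37.8% in WT 2-cell samples (70 of 185 reads; 30.8 to 45.2), with paternal reads in 2 of 9 KO and 7 of 8 WT libraries. Orai1 had 5.23% in KO (16 of 306 reads) and 27.3% in WT (48 of 176 reads), the WT reads coming from 4 of 8 libraries. Itpr1 had 2.69% in KO and 5.76% in WT, and Mcu had 0.106% in KO and 0.246% in WT, so nearly all Mcu RNA carried the mother's allele in both groups. Stim2 had no paternal read among 1219 in KO, where the exact interval allows a share of up to 0.302%, and 2.08% in WT (6 of 289 reads). Atp2b1 had none of 674 in KO, where the interval allows up to 0.546%. In WT it had 1.91%, and all 10 paternal reads came from replicate 7. Slc8b1 had too few allele reads for the count, 0 paternal of 4 in KO and 24 of 36 in WT 2-cell samples.

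**Figure D4:**
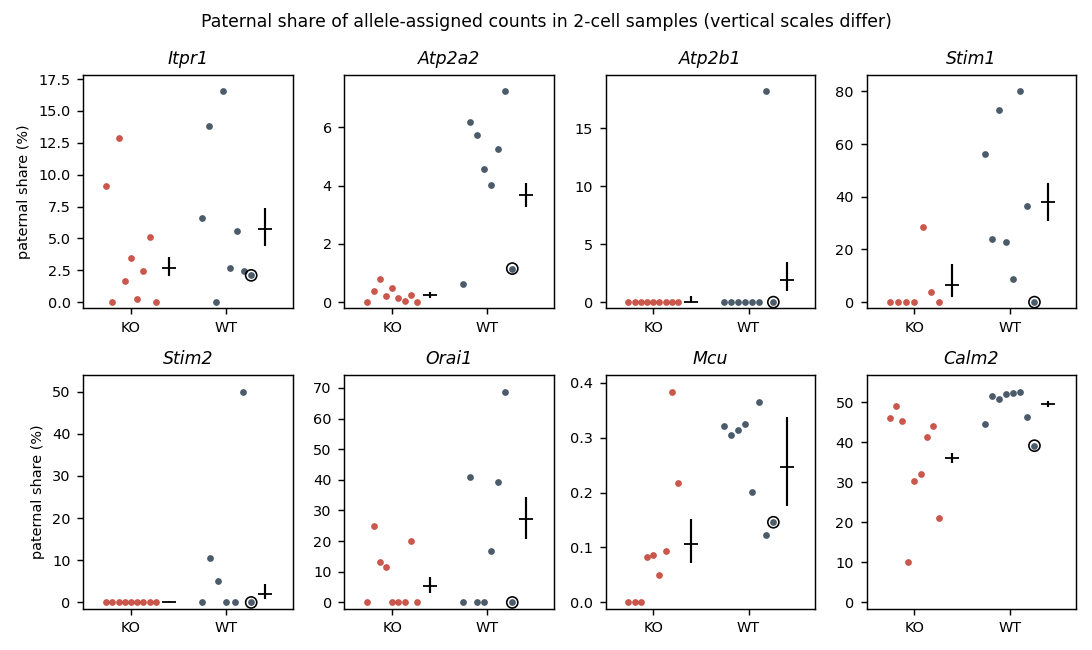
Paternal share of allele-assigned reads in 2-cell samples, in percent on scales that differ by panel, for the 8 members with 50 or more allele reads; points are libraries, the circled one is WT replicate 8, and black crosses are the pooled share with its exact 95% interval. Calm2 pools at 36.1% in KO and 49.6% in WT, and Atp2a2 at 0.229% in KO and 3.67% in WT.

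In IVC against E6.5 epiblast, Calm2 rose and Atp2a2 and Stim1 fell. edgeR's quasi-likelihood test with Benjamini-Hochberg adjustment called 3 of the 8 members tested, 1 higher and 2 lower in IVC, where it called 35.5% of 11565 genes (12% higher, 23.5% lower). With 1 sample left out it called 8 members without IVC replicate 1, 7 without IVC replicate 2 and 2 without either E6.5 sample. In such bulk samples fewer cells of a type and less RNA per cell cannot be told apart, and where nothing says that the 2 samples of a group are separate animals the p-values measure only the spread between them. The IVC samples also had fewer genes with a read (8380 and 8990, against 13101 and 13698 in E6.5), and 243 of 4970 genes at 25 CPM or more in both E6.5 samples (4.89%) had no read in either IVC sample. Rn45s took 0.101 to 0.121% of IVC reads and 23.3 to 26.2% of E6.5 reads, and the epiblast markers summed to 1081 to 1123 CPM in IVC and 4339 to 5150 CPM in E6.5. Trophoblast markers summed to 6326 to 6466 CPM in IVC, nearly all Prl3d1 at 6254 and 6259 CPM with Cdx2, Hand1, Ascl2 and Tpbpa at 0, and to 6.60 to 21.9 CPM in E6.5, and visceral endoderm markers to 453 to 535 CPM in IVC and 192 to 216 CPM in E6.5. Their part in the member results was not tested.

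Calm2 had 6683 and 7111 CPM in IVC epiblast, against 240 and 294 CPM in E6.5 epiblast. Both IVC values were far above both E6.5 values, with an edgeR log2 fold change of 4.97 ± 0.13 (SE) and an adjusted p of 0.00379. edgeR does not report this SE: it was worked back as the size of the log2 fold change over the square root of F. Atp2a2 had 29.5 and 41.2 CPM in IVC and 619 and 566 CPM in E6.5. The groups were far apart again, at −3.80 ± 0.27 (SE) with an edgeR adjusted p of 0.00668. Stim1 had no read in either IVC sample and 30.1 and 25.8 CPM in E6.5. Its pooled E6.5 level was 187-fold a floor of 3 reads over the IVC group, which is not a lower limit. It was called lower in IVC with an edgeR adjusted p of 0.0398. That call was lost when either E6.5 sample was left out (adjusted p 0.585 and 0.601).

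The other members did not pass the test, which does not show that they were equal. Slc8b1 had 0 and 0.195 CPM in IVC (2 reads) and 10.7 and 8.65 CPM in E6.5, a ratio of 96.0 of E6.5 over IVC with a counting interval of 26.4 to 796 and an edgeR adjusted p of 0.0777. Itpr1 had 10.6 and 0.781 CPM in IVC and 96.7 and 125 CPM in E6.5 (edgeR adjusted p 0.111). Its IVC samples were far from each other, both below E6.5. Mcu had 123 and 41.2 CPM in IVC and 14.8 CPM in each E6.5 sample (edgeR adjusted p 0.0616), and Atp2b1 had 325 and 167 CPM in IVC and 98.9 and 119 CPM in E6.5 (0.0677). Both had IVC values above E6.5 values, an order that 2 samples against 2 can give by chance. The share of all genes with such an order was not counted. Stim2 had 7.61 and 0 CPM in IVC and 19.3 and 14.8 CPM in E6.5 (edgeR adjusted p 0.642), and Orai1, with 0.193 and 0 CPM in IVC and 0 and 2.33 CPM in E6.5, was too low to test. DESeq2's Wald test called 6 members, adding Slc8b1, Mcu and Itpr1 (adjusted p 0.000177, 0.0183 and 0.0160).

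**Figure D5:**
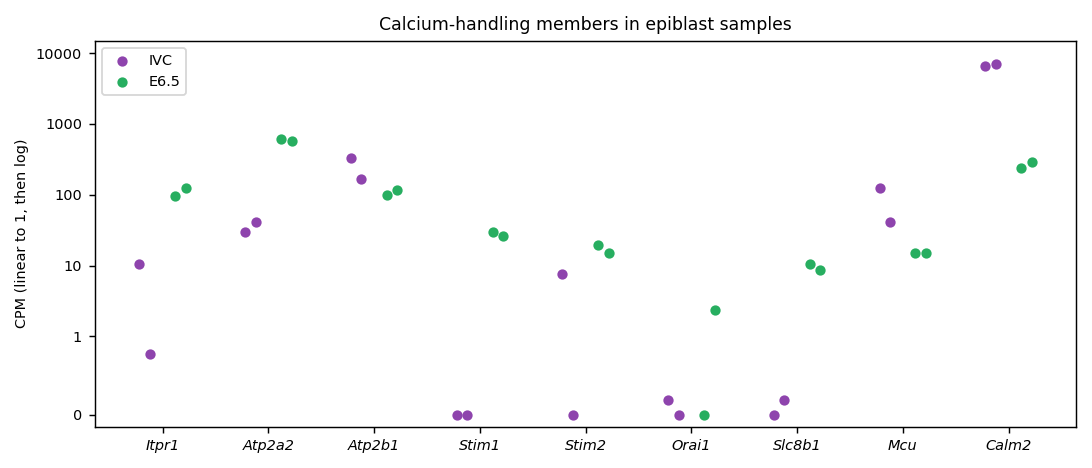
Level of the members in each epiblast sample, in CPM on an axis linear to 1 and then logarithmic, IVC and E6.5 side by side. Calm2 stands at 6683 and 7111 CPM in IVC and 240 and 294 CPM in E6.5, and Stim1 has no read in either IVC sample.

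Of the 62 other calcium genes, 50 were tested in epiblast, and 7 rose and 13 fell in IVC by the same edgeR test, close to the 12% higher and 23.5% lower of all genes tested. In the luminal list 2 of 9 rose and 1 fell, the calcium-binding chaperone Calr, at 60.2 and 59.2 CPM in IVC and 906 and 626 CPM in E6.5 (−3.42, adjusted p 0.00964). The release list had 1 of 9 higher and 4 lower, the entry list 0 of 6 higher and 4 lower, the mitochondrial list 3 of 10 higher and 3 lower, and none of 4 pumps was called.

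The members thus had different orders of level over the 6 groups, given here as pooled CPM without a test across the single-cell and epiblast tables. Calm2 stood at 6895 in IVC and 276 in E6.5 epiblast, 356 in KO and 1574 in WT 2-cell samples, and 78.2 in KO and 72.7 in WT oocytes, the last pair overlapping. Mcu stood highest in the 2-cell samples (862 in KO, 824 in WT), next in oocytes (606 in KO, 564 in WT) and lowest in epiblast (82.5 in IVC, 14.8 in E6.5). Its KO and WT libraries overlapped at both stages. Slc8b1 had its highest level in E6.5 epiblast, at 9.31 CPM, and next in WT 2-cell samples, at 1.59 CPM. Stim1 likewise had its highest level in E6.5 epiblast, at 27.2 CPM, and next in WT 2-cell samples, at 7.44 CPM.

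Over the 50 oocyte and 2-cell libraries, the genes whose log2(CPM + 1) followed a member most closely among 8782 genes are named only as a description. The libraries differ in stage, library set and depth, and the part of these differences in the correlations was not tested. Slc8b1 and Stim1 were under 10 CPM in every pool of these libraries. Atp2b1 ran closest to Ncapg, Cenpf and Eprs (Pearson r 0.969, 0.962 and 0.959), Stim2 to Lrrc17, Plat and Trappc3 (0.949, 0.946 and 0.925), and Calm2 to Selenos, Chchd10 and Hmmr (0.950, 0.941 and 0.941). Slc8b1 ran closest to Atp1b2 (0.956), Atp2a2 to Cltc (0.903), Orai1 to Tpt1 (0.895), Mcu to Marf1 (0.860), Stim1 to Rab10os (0.800) and Itpr1 to Brd2 (0.765). No other calcium gene of the 6 lists was among the 3 closest of any member.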

How the data were processed

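RNA was sequenced as polyA RNA from 50 single-cell libraries and 4 epiblast samples, 54 of the 209 samples of the series, and the other 155 were not analysed here. The authors deposited raw counts per gene symbol, with allele-assigned maternal and paternal counts beside the totals for oocytes and 2-cell samples. The submitters' processing notes name Trim Galore 0.6.6, cutadapt 1.15, STAR 2.6.0a, HTSeq 0.10.0, featureCounts 2.0.1 and SAMtools 0.1.18 and the build mm9, with no role or order. Strand and the handling of reads shared by similar genes are not given in the sources used here.

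The 92 spike-in rows were left out of totals, and 4 epiblast rows that share a name were left out. In oocyte columns the maternal counts equal the totals and the paternal counts are 0 (33 of 33 columns), so oocyte reads were not split by allele and only 2-cell samples give paternal shares, for genes with 50 or more allele reads in the group. No 2 libraries of a group agreed within sampling noise (smallest chi-square per gene 13.1). No column was without a sample.

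Counts were turned into CPM in Python 3.11.15 with numpy 2.4.6, pandas 2.3.3 and scipy 1.17.1, with exact conditional Poisson intervals for ratios and exact Clopper-Pearson intervals for shares, both at 95%. A ratio against no reads used a floor of 3 counts over the group. Epiblast counts were fitted in R 4.3.3 by edgeR 4.0.16 with its two-sided quasi-likelihood F test after filterByExpr and TMM scaling, calling a Benjamini-Hochberg adjusted p under 0.05 over 11565 genes, with DESeq2 1.42.0 and DESeq2 size factors as alternatives, and the fit was tested on simulated counts. Other alternatives were the mean or median of libraries, no filter, no Rn45s, each library left out and library sets alone.

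The members, the 6 lists and the markers were chosen with earlier results of these data known. All 9 members are named in every comparison between groups, but not in that between library sets. Up to 3 called genes of a list with the largest ratios may be named. The 3 genes most like a member were taken by Pearson r of log2(CPM + 1), with a pseudocount of 1. A gene of the lists is not reported here.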

Additional observations from a re-analysis of the deposited data

Results flagged for a closer look

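Each member was checked for a single 2-cell sample far from the rest of its group, in 18 groups of 8 or 9 samples. The measure was the gap to the nearest sample over the range of the group. Chance alone picks out about 1 in 20 groups if values are normally distributed. The rate for CPM with zeros was not tested. Slc8b1 stood out in KO 2-cell replicate 4, at 0.866 CPM, where 7 of the other KO samples had no read and replicate 7 had 0.112 CPM (gap over range 0.870). Replicate 4 is the deepest KO 2-cell library and had the lowest sum of 2-cell markers, 141 CPM. Orai1 stood out in KO 2-cell replicate 6, at 25.6 CPM (gap over range 0.558). None of the 9 members went one way in every sample of one stage and the opposite way in every sample of the other.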

How the results depend on the processing

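Depth limits Slc8b1, Stim1 and Orai1, which rest on few reads in single cells. Between KO and WT oocytes 1 member was called, and 0 in low-rRNA libraries alone or, in an alternative chosen after seeing the data, in the remaining libraries alone. Of all genes 280 were called, against 594 by the mean and 1417 by the median of libraries, 5741 with no filter, 835 in spike-in libraries, 573 in the remaining libraries, and 233 to 513 with each library left out (452 without WT replicate 1, 513 without WT replicate 2). Between KO and WT 2-cell samples 2 members were called, 4 with no filter and 1 to 2 with each library left out (1 without KO replicate 4), and of all genes 3160, against 10221 with no filter. Between WT stages 5 members were called, 3 with TMM factors and 3 by the median of libraries, and of all genes 4731, against 12974 with no filter. Between KO stages 2937 genes were called, against 11728 with no filter. Stim2 reversed between WT stages (0.59 by the median of libraries, 1.89 against spike-in oocytes) and between KO stages (1.24 against spike-in oocytes). The paternal share was lower in KO for 7 to 8 members with each library left out.

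In epiblast 4106 genes and 3 members were called, against 1596 genes with no filter, 6 members with DESeq2's Wald test, and 737 to 8339 genes and 2 to 8 members with each sample left out. Without E6.5 replicate 1 and 2 it was 737 and 766 genes, and without IVC replicate 1 and 2 it was 7877 and 8339 genes. With the replicate number as a block, 1254 genes and 2 members were called, and Stim1 was lost (edgeR adjusted p 0.264). The numbers share no stated source, and same-numbered samples deviated with r 0.00599 over 11565 genes, so they were not taken as pairs. Where no cause is given, the cause was not tested.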

Other observations

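Between the oocyte and 2-cell stages in WT, 36 of the 62 listed genes were measured, and 12 were 2-fold or more higher and 6 lower at the 2-cell stage, counts near the 41.1% higher and 14.3% lower of all genes. Against spike-in WT oocytes alone, 17 of 36 were higher and 3 lower, where 42.1% of all genes were higher and 12.8% lower. Itpr2, a relative of Itpr1, was lower (36.4 CPM in WT 2-cell samples, 333 CPM in WT oocytes; log2 ratio −3.19), while Camkk2 and Calm3 were higher (4.93 and 3.64). Sdf4, a calcium-binding protein of the secretory pathway, was higher (3.45), as was Trpc1 (3.85). In KO, 31 were measured, and 8 were higher and 9 lower at the 2-cell stage, where 23.6% of all genes were higher and 17.4% lower. Against spike-in KO oocytes alone, 8 of 33 were higher and 7 lower, where 19.5% were higher and 16.3% lower. Itpr2 was lower (−2.38) and Tmbim6 higher (1.52), and in the mitochondrial list Vdac1 was higher (1.64) and Letm1 lower (−2.06). Like Stim2, Saraf was of opposite sign by library set, at −1.88 against all WT oocytes and 3.40 against spike-in ones, and at −1.45 against all KO oocytes and 2.19 against spike-in ones.

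Within spike-in oocyte libraries alone, 6 of 33 listed genes measured were 2-fold or more higher in KO than in WT and 1 was lower, where 9.41% of genes were higher and 3.69% lower. The higher ones included Saraf (2.28), Rcn2 (1.76), Calu (1.55) and Letm1 (1.42), and the lower one was the release channel Ryr2 (−1.24). In low-rRNA libraries 29 of the 62 were measured and none was called, where 4.01% of genes were apart. In the remaining libraries, 2 KO and 1 WT, 2 of 32 measured were higher and 2 lower, where 8.90% of genes were apart.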
